A study of Homo sapiens with 2 samples.

Results

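Strong peaks of open chromatin that were called only after MAK683 numbered 867, of 17536 MAK683 peaks of 1 RPM or more on chromosomes 1 to 22 and of 161684 MAK683 peaks in all. They were chosen by their height, at least 1 RPM, and by the absence of any DMSO peak overlapping them by 1 bp or more. RPM is the number of sequencing tags over the peak summit per 1000000 tags that remained after duplicate filtering. The cells were G401, an established line from a rhabdoid tumor of the kidney, and open chromatin was read by ATAC-seq, where Tn5 transposase puts sequencing adapters into accessible DNA. A culture given DMSO, the solvent, was compared with a culture given MAK683 for 3 days, at 3 μM per the design text. Each treatment had 1 library, so no difference here has a replicate check and no test was run. All intervals are 95% intervals for counting error only, and without molecular identifiers tags can be copies of the same molecule.

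MAK683 binds EED, the subunit with which Polycomb repressive complex PRC2 recognizes its own histone mark. PRC2 methylates histone H3 at lysine 27 and thereby keeps developmental regulators, such as homeobox and T-box transcription factors, silent in cells where they are not needed. Its domains often span whole genes and their surroundings, and the chromatin inside them is compact. A peak height is an average over all cells of the culture, so a site open in more cells and a site more open in each cell cannot be told apart.

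The members were 4.94% of the strong MAK683 peaks, and the mirrored rule gave 551 DMSO peaks without a MAK683 peak, 2.26% of 24414. The ratio of the counts was 1.57, but it depended on the rule. It was 1.01 when only the summit had to lie outside the other library's peaks, 2.47 when peaks within 1 kb were barred and 4.49 with a limit of 19 tags in either library. The MAK683 library held 18265284 tags after filtering and the DMSO library 16598348, which puts 1 RPM at 19 and 17 tags respectively. The MAK683 library had 1.42 times as many peaks of any height but 0.718 times as many of 1 RPM or more. MAK683 peaks that overlapped a DMSO peak had a median log2 height ratio of -0.43 against it. Members are set beside 9725 shared MAK683 peaks of similar height, 1 to 1.5 RPM, and beside the 551 strong DMSO-only peaks. SMARCB1, the chromatin remodeling subunit that rhabdoid tumors lose, had no peak at its promoter or in its body in either library. The blood cell genes PTPRC and CD3E had no promoter peak, and the epithelial gene EPCAM had promoter peaks of at most 12 tags in either library.

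The sites with the most tags are shown here by their sequence, because they are the clearest cases of the class. These are GRCh37 (hg19) windows of up to 200 bp around the summit, on the plus strand, cut to leave out untranslated regions. The upper 4 come within 3 kb of where a protein-coding gene starts to be transcribed (its TSS), and the lower 4 lie farther from any TSS. The window of SGCD, as tall as B3GAT1, was too short after this cut and is not shown. Capitals mark any of the 17 motifs whose shares are given below.
UGT3A2, chr5:36066987-36067161: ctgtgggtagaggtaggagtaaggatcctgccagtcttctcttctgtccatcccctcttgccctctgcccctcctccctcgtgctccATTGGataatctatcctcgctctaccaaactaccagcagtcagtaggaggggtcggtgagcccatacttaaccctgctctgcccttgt
B3GAT1, chr11:134280506-134280705: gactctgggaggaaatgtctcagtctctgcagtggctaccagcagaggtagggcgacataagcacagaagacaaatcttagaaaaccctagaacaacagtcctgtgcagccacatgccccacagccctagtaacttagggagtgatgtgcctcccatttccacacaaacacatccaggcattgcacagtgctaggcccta
ANKRD1, chr10:92680992-92681191: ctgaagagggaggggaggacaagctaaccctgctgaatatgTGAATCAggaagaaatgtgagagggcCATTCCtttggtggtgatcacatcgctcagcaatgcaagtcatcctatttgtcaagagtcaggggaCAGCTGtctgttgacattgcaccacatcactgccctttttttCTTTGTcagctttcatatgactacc
ST8SIA2, chr15:92934984-92935183: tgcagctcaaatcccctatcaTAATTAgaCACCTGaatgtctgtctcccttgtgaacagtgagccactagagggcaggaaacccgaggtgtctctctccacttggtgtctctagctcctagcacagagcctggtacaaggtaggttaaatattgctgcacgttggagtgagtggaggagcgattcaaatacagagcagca
intron of ENSG00000273824, chr12:68800127-68800326: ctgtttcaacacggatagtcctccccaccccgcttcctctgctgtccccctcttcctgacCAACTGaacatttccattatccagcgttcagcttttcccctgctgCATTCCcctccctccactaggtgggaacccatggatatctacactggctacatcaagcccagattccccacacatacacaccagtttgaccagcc
exon of PDE4B, chr1:66798073-66798190: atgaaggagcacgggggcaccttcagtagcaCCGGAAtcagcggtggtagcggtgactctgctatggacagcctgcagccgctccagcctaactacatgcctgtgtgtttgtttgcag
LINC02923, chr2:23598410-23598609: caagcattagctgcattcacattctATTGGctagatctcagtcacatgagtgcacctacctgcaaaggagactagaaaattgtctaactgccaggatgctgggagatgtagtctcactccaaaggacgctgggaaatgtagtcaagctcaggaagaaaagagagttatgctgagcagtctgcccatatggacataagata
intron of TRABD2B, chr1:48251316-48251515: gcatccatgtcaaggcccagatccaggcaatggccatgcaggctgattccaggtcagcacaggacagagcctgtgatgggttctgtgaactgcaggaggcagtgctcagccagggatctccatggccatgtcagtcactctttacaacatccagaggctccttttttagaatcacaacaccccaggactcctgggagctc

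The ANKRD1 window held matches to AP-1, TEAD, E-box and SOX motifs, and the B3GAT1 and TRABD2B windows held no match to any of the 17. The PDE4B window lay in an exon of that gene, with its nearest counted TSS, that of SGIP1, 201355 bp away. Only 1 TSS was counted per gene, so a peak at an alternative start is counted as distal.

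Most members stood just above the height limit. Of the 867, 256 had 19 tags and 200 had 20 tags, and 94 (10.8%) had 25 tags or more. The median height was 1.09 RPM and the tallest member had 36 tags, or 1.97 RPM. Just inside the limit, 14.4% of the MAK683 peaks with 19 tags had no DMSO peak, and just outside it 413 peaks with 18 tags (19.4%) had none. The share fell with height to 2.80% at 26 tags and 0.287% at 36 tags. DMSO peaks had the same kind of decline, with 9.95% lacking a MAK683 peak at 17 tags and 0.472% at 25 tags.

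**Figure D1:**
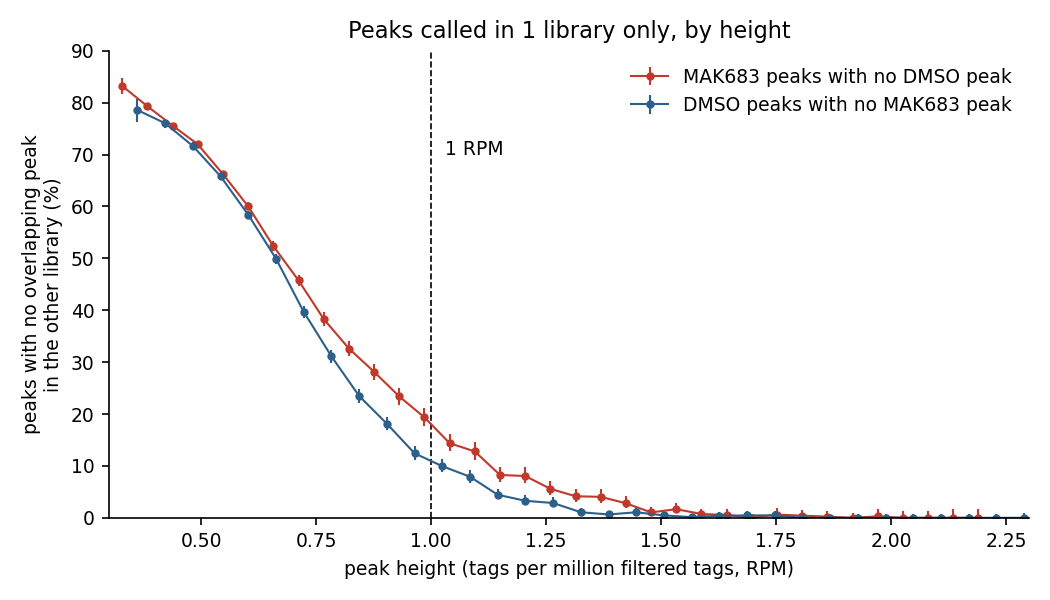
Share of peaks on chromosomes 1 to 22 with no overlapping peak in the other library (y axis, percent) against peak height (x axis, RPM), with MAK683 peaks in red and DMSO peaks in blue. Points are tag numbers, bars are 95% Wilson intervals and the dashed line is the limit of 1 RPM; both curves fall steeply, from 83.2% for MAK683 peaks of 6 tags to 14.4% at 19 tags.

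Members were mostly away from gene starts. Of the 867, 268 (30.9%, interval 27.9 to 34.1) came within 3 kb of a TSS, against 58.7% of the shared peaks of similar height and 28.7% of the DMSO-only peaks. A TSS lay inside 12.9% of members, 43.97% of the shared peaks and 6.72% of the DMSO-only peaks. Members over 50 kb from any counted TSS made up 16.03% (13.7 to 18.6), against 5.08% and 7.26%. The median distance to a TSS was 10644 bp for members, 1006 bp for the shared peaks and 7483 bp for the DMSO-only peaks. Thus members were less often at gene starts than shared peaks of 1 to 1.5 RPM, as the DMSO-only peaks were, and lay in remote positions more often than either. The shared peaks were slightly taller, with a median of 22 tags against 20, and TSS shares were larger in taller sets. The share within 3 kb was 48.1% for members of 1.5 RPM or more and 68.8% for all strong shared peaks. The part of height in this contrast was not tested.

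The nearest gene was protein coding for 339 members (39.1%) and a long noncoding RNA gene for 292 (33.7%). Pseudogenes were nearest to 138 (15.9%) and other genes to 98 (11.3%). Among the shared peaks of similar height, 59.8% had a coding gene and 23.1% a long noncoding RNA gene nearest. The summit lay in an intron for 51.9% of members, in an exon for 11.5% and between genes for 36.6%. The DMSO-only peaks lay between genes less often, at 24.0%, and inside coding genes more often, at 67.9% against 48.9% of members.

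Member summits were poorer in G, C and CpG than shared summits. Median GC content of the 200 bp around the summit was 52.5% for members, 61.0% for the shared peaks and 49.5% for the DMSO-only peaks. CpG islands, the CpG-rich stretches at many promoters, were approximated as windows with a CpG observed to expected ratio of at least 0.6 and GC of at least 50%. Such windows made up 6.34% of members and 43.1% of the shared peaks. Within 3 kb of a TSS the shares were 11.6% (8.27 to 15.95) and 63.7% (62.4 to 64.9). The DMSO-only peaks resembled members in this respect, with 7.99% overall and 18.99% near a TSS.

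Members were slightly shorter than shared peaks of similar height and longer than the DMSO-only peaks. Their median length was 1127 bp (1050 to 1158) with quartiles of 783.5 and 1551.5 bp, and 13.8% were 2 kb or longer. The shared peaks of similar height had a median of 1263 bp, and 20.04% reached 2 kb. The DMSO-only peaks had a median of 590 bp, and 0.726% reached 2 kb. Median heights were 20 tags for members, 22 for the shared peaks of similar height and 18 for the DMSO-only peaks.

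**Figure D2:**
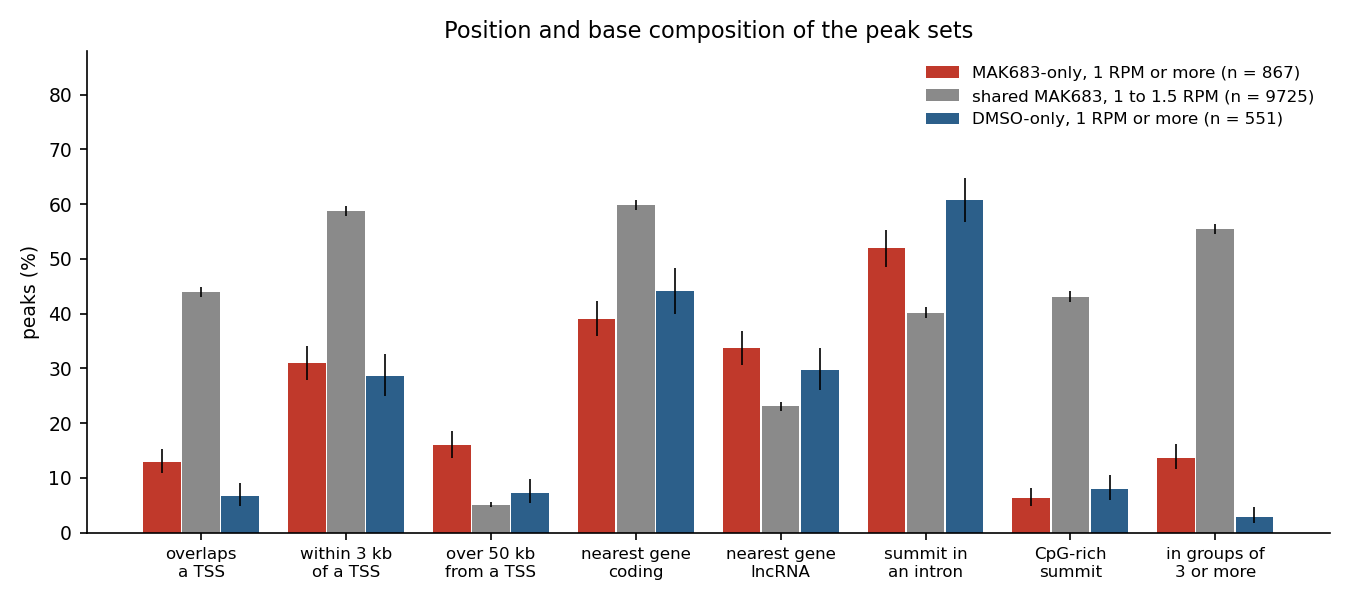
Percent of peaks (y axis) with each position or sequence property (x axis) for members (red), shared MAK683 peaks of 1 to 1.5 RPM (grey) and strong DMSO-only peaks (blue), with 95% Wilson intervals. Members and DMSO-only peaks both sit below the shared peaks for TSS overlap and CpG-rich summits, and members are the highest set over 50 kb from any counted TSS, at 16.03%.

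Member surroundings differed from those of either other set. Within 50 kb of a member summit, the median was 15 other MAK683 peaks and 1 DMSO peak, peaks of any height counted. MAK683 peaks outnumbered DMSO peaks around 846 of the 867 members (97.6%), and the ratio of all such neighbors was 7.99. Around shared peaks of similar height the medians were 12 and 12 with a ratio of 0.934, and around DMSO-only peaks 11 and 16 with a ratio of 0.718. The rule bars a DMSO peak only from the member itself, and leaving out the nearest 5 kb gave a ratio of 7.88. MAK683-only peaks under 1 RPM had a ratio of 2.91, and MAK683-only peaks just below the limit, with 18 tags, had 6.59. Over all MAK683 peaks the ratio was 1.37.

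Because the MAK683 library had more low peaks, the neighbors were also counted at 0.6 RPM or more, where the libraries held peaks in a ratio of 0.967. Around members the ratio was then 5.10. Heights of peaks present in both libraries moved along with the members. Within 50 kb of a member, 1134 shared peaks had a median log2 height ratio of MAK683 over DMSO of 0.22 (0.16 to 0.26), and 61.5% were higher in the MAK683 library. Over all 68289 shared peaks the median was -0.43 and 20.2% were higher, and within 50 kb of a DMSO-only peak it was -0.60. Peak calling used a single background level for a whole library, so regional coverage was not corrected, and its part in these ratios was not tested.

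Members were also far from DMSO peaks. The median gap to the nearest DMSO peak of any height was 26180 bp, 59 members (6.81%) had one within 1 kb, and 143 (16.5%) had none within 100 kb. The DMSO-only peaks had a MAK683 peak at a median of 1628 bp, and 40.7% had one within 1 kb. None of the 551 was over 100 kb from a MAK683 peak, which allows a share of up to 0.692% by the Wilson interval. The MAK683 library had 1.42 times as many peaks, which shortens gaps to it, and whether those neighboring MAK683 peaks were shared with DMSO was not counted.

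Some members lay in groups, counting neighbors within 100 kb of each other. Of the 867, 590 (68.1%) stood alone, 79 pairs were found, and 119 (13.7%) fell in 33 groups of 3 or more. Among DMSO-only peaks 2.90% were in groups of 3 or more, and among the more numerous shared peaks of similar height 55.5%. These shares depend on how many peaks a set holds. All 33 spans had more MAK683 than DMSO peaks, 862 against 88 in total, and 12 spans held no DMSO peak. The 862 include the 119 members that define the spans and by rule overlap no DMSO peak, so part of this excess is built in.

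The largest group had 8 members over 129 kb at MYT1L (ENSG00000186487), which encodes a zinc finger factor of neurons and lies on chromosome 2 at 1792885 to 2335436, minus strand. Of these, 6 lay in MYT1L introns and 2 lay beyond its 3' end, and their heights ran from 19 to 24 tags. The span held 74 MAK683 peaks and 4 DMSO peaks, the tallest DMSO peak having 18 tags. The whole gene held 140 MAK683 peaks, 8 of them members, and 6 DMSO peaks.

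TBX5, a T-box factor of heart and forelimb development, had 4 members in 24.1 kb on chromosome 12, with 26, 25, 19 and 19 tags. Each was at least 225655 bp from the nearest DMSO peak. PAX3, a factor of neural crest and muscle precursors, had 3 members of 25, 24 and 23 tags in 13.4 kb, also with no DMSO peak in the span, although the nearest one lay 1042 bp from the member of 25 tags. EN1, the engrailed homeobox gene of midbrain and limb patterning, had 3 members of 23, 22 and 20 tags in 37.1 kb with 23 MAK683 peaks and no DMSO peak. ANKRD1, a muscle ankyrin repeat gene, had 3 members of 32, 30 and 19 tags in 19.5 kb with no DMSO peak. At TBX5, PAX3, EN1 and ANKRD1 the outer members thus enclosed MAK683 peaks only.

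Most groups held a DMSO peak, and only 12 of the 33, those of TBX5, PAX3, EN1 and ANKRD1 among them, had none in the span. The EN2 group, around the other engrailed gene, had 5 members in 36.4 kb, with 18 MAK683 and 9 DMSO peaks, 6 shared strong peaks among them. The SOX2 group had 3 members with 18 MAK683 and 4 DMSO peaks. A group on chromosome 2 at 91663826 to 91787948, among pseudogenes and noncoding RNA genes with no coding TSS, had 41 MAK683 and 32 DMSO peaks.

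Coding genes with 3 or more members in the gene or near its TSS numbered 18. Together they held 1343 MAK683 and 99 DMSO peaks of any height, a ratio of 13.6, and none held a strong DMSO-only peak. Only 551 such DMSO-only peaks were found in all, and the share of all coding genes holding one was not counted. Their absence from these 18 genes therefore shows no difference. CELF4, a neuronal RNA-binding protein, had 3 members, 147 MAK683 peaks and 9 DMSO peaks. RARB, the retinoic acid receptor beta, had 5 members of 21 to 26 tags, 74 MAK683 peaks and 9 DMSO peaks. KIRREL3 and OPCML, cell adhesion molecules, had 123 against 11 and 71 against 7 peaks. GRIK4, a kainate glutamate receptor subunit, had 100 against 9. TBX5, SLC22A2, an organic cation transporter, and KCNJ5, a potassium channel, had 12, 33 and 21 MAK683 peaks in the gene body and no DMSO peak there. The others were ARHGAP26, MAML2, SSUH2, ADARB2, ANKS1B, CYRIA, KLHL29, NR5A2 and NRXN3, each with more MAK683 than DMSO peaks. These genes were chosen by their members, which count among the MAK683 peaks.

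**Figure D3:**
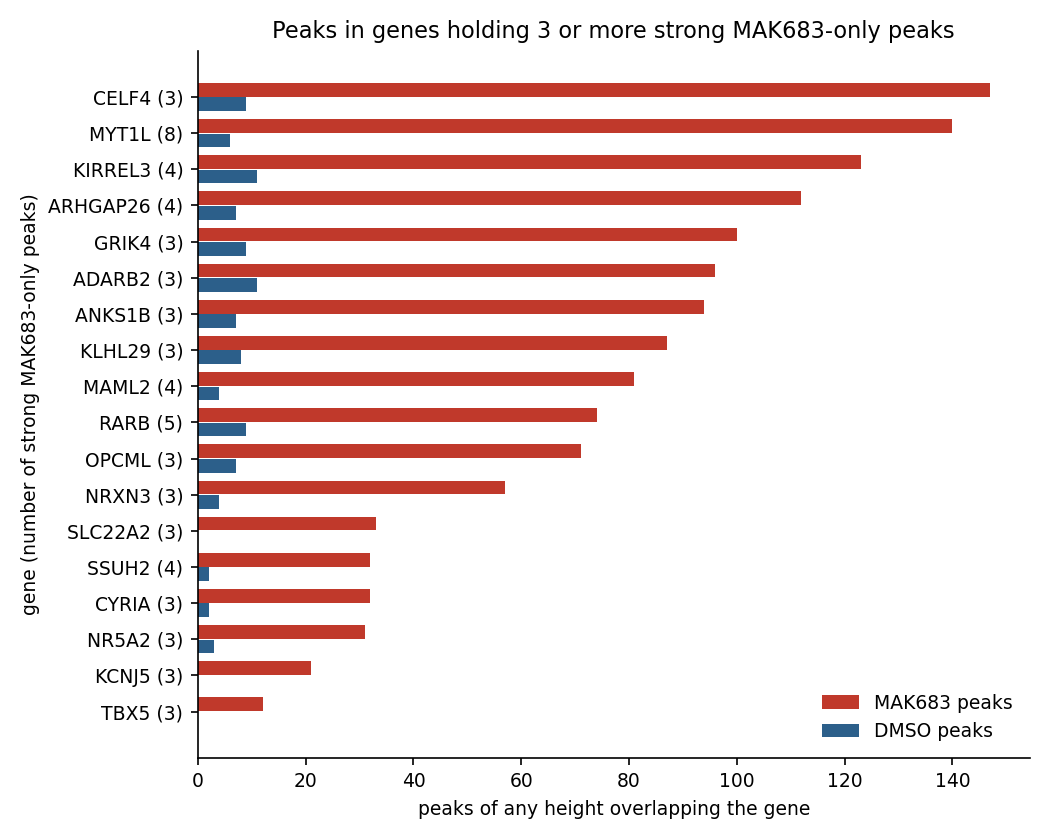
Number of peaks of any height overlapping each gene (x axis) in the MAK683 (red) and DMSO (blue) libraries for the 18 coding genes with 3 or more members (y axis, number of members in parentheses). MAK683 peaks outnumber DMSO peaks in every gene shown, from 147 against 9 at CELF4 to 12 against 0 at TBX5.

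At the gene level, 165 of 19229 coding genes (0.858%) had a member within 3 kb of the TSS, and 115 (0.598%) had a strong DMSO-only peak there. Of the 165, 113 (68.5%) had no DMSO peak of any height within 3 kb. The other 52 had one, so there the member stood beside a DMSO peak of the same promoter. Over all coding genes, counted once per symbol, 14222 of 19222 had a DMSO peak within 3 kb. The rule itself bars a DMSO peak that overlaps the member. In 15 of the 165 the tallest DMSO peak within 3 kb was higher in RPM than the member. In 27 of the 165 another MAK683 peak within 3 kb was taller than the member. The member summit lay within 500 bp of the TSS for 70 of the 165. Long noncoding RNA genes with a member numbered 101, of which 75 had no DMSO peak within 3 kb. The share without one over all long noncoding RNA genes is not given here.

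UGT3A2, a glycosyltransferase gene, had the promoter member of most tags, 34 (1.86 RPM, 1.29 to 2.60), peaking 78 bp before the TSS, and no DMSO peak within 3 kb. B3GAT1, whose enzyme makes the HNK-1 carbohydrate of neural and natural killer cells, had 33 tags and no DMSO peak within 3 kb. SGCD, the delta-sarcoglycan of the muscle membrane, had 33 tags 20 bp from its TSS, with the nearest DMSO peak 699441 bp away. ANKRD1 had 32 tags 248 bp upstream of its TSS and no DMSO peak within 3 kb. At these 4 promoters only the MAK683 library had a peak.

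ST8SIA2, which adds polysialic acid to neural adhesion molecules, had a member of 30 tags, with 2 DMSO peaks within 3 kb of its TSS, the taller of 19 tags. GLRX, a glutaredoxin, and IKZF1, the lymphoid factor Ikaros, each had 29 tags and no DMSO peak within 3 kb. CERKL, NRXN3, a presynaptic neurexin, and STMN2, a neuronal microtubule regulator, had 28 tags each. The first pair had no DMSO peak within 3 kb, and STMN2 had one of 13 tags. ACSS3, an acyl-CoA synthetase, had 27 tags and no DMSO peak within 3 kb.

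A further 12 coding genes tied at 26 tags (1.42 RPM, 0.930 to 2.09), so that 23 genes were named by height. Of the 12, ABI3BP, ARHGAP24, ENPP2, ESRRG, FABP7, KLHL14, RARB, TBX20 and TNFRSF19 had no DMSO peak within 3 kb. HTR1B, a serotonin receptor, had a DMSO peak of 12 tags, ITIH5 of 9 and TTLL7 of 20. At TTLL7 another MAK683 peak within 3 kb, of 31 tags, was taller than the member. Heights of neighboring ranks in this order did not differ beyond their counting intervals.

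Developmental regulators, the best known targets of PRC2, were counted by family. In the list of homeobox genes other than HOX, 11 of 143 (7.69%) had a member within 3 kb of the TSS against 0.858% of all coding genes. None had a strong DMSO-only peak there, near the 0.598% of all coding genes that did. The 11 included BSX, HMX1 and ZFHX4 with 24 tags, LHX8 with 23, POU4F3 with 21, and EN1 and POU3F2 with 20. DBX1, LHX9 and PRRX1 had 19. DMSO peaks within 3 kb were present at BSX (14 tags), POU3F2 (24 tags) and LHX9 (19 tags) and were absent at the other 7 named here. None of the 39 HOX genes had a member, and 37 of them had a DMSO peak of some height at the promoter. In a list of 39 genes, none is near the 0.858% of all coding genes. For 1 HOX gene, 2.56% of the list, a strong DMSO-only peak lay within 3 kb of the TSS.

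In the GATA, T-box and PAX list, 3 of 30 genes (10%) had a member, TBX20 with 26 tags and PAX3 and TBX5 with 25 each, all without a DMSO peak within 3 kb. In the neurogenic bHLH list, 3 of 58 did, the mesoderm factor MSGN1 and the endocrine pancreas factor NEUROG3 with 23 tags and the heart and limb factor HAND2 with 19, which had a DMSO peak of 13 tags within 3 kb. FOXP2 was the sole forkhead gene of 49, with 20 tags. The SOX list had no member within 3 kb of a TSS among 18 genes, which is near the 0.858% of all coding genes. Within all these lists the counts are small, and no test was run.

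Genes of neuronal signaling were counted in 4 lists. Over all coding genes 0.858% had a member and 0.598% a strong DMSO-only peak, and the counts in these lists are small. Receptors for glutamate, GABA and glycine had members at 3 of 46 genes (6.52%), GABRB2, GRIA1 and GRIA4, each with 20 tags. GRIA1 had no DMSO peak within 3 kb, and GABRB2 had 1 of 14 tags. GRIA4 had 2, the taller of 14 tags, and another MAK683 peak there, of 41 tags, was taller than its member. Potassium channels had 4 of 92 (4.35%), KCNB2 with 24 tags, KCNMB2 with 21, KCNJ5 with 20 and KCNMB1 with 19. KCNB2 and KCNJ5 had DMSO peaks of 12 and 14 tags within 3 kb. Synaptic adhesion genes had 3 of 75 (4%), NRXN3 with 28 tags, OPCML with 24 and LRFN5 with 20. The nearest DMSO peak to the LRFN5 member was 1186717 bp away. Axon guidance genes had 2 of 68 (2.94%), NRP2 with 20 tags and EPHB1 with 19, and also 2 genes with a strong DMSO-only peak. The tallest DMSO peaks within 3 kb had 15 tags at NRP2 and 23 at EPHB1, the latter taller than the member. At NRP2 another MAK683 peak within 3 kb, of 36 tags, was taller than the member.

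Some lists of matrix genes and secreted factors had 1 or 2 genes with a member, beside 0.858% of all coding genes. Counts this small do not show a difference from that share. Collagens had COL21A1 with 24 tags and COL8A1 with 19, of 42 genes (4.76%). Chemokines and interleukins had CXCL2 with 20 tags and CCL2 with 19, of 96 (2.08%). FGF10, with 21 tags, was the FGF ligand of 20 (5%). INHBA, the activin subunit, with 21 tags, was the TGF-beta family ligand of 33 (3.03%). FGF10 had no DMSO peak within 3 kb, whereas INHBA had one of 28 tags, taller than its member. Of 33 genes the study named, 2 (6.06%) had a member, both without a DMSO peak within 3 kb. They were DSG2, a desmosomal cadherin, with 25 tags, and CCL2, a monocyte chemoattractant. That list was drawn in part from these libraries and is not independent of them.

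Lists of genes active in most cells had none. No member lay within 3 kb of the TSS of the 82 cytosolic ribosomal protein genes or of the 56 replication and mitosis genes. Of the latter, 2 (3.57%) had a strong DMSO-only peak, against 0.598% of all coding genes. A DMSO peak of some height lay within 3 kb at 81 of the 82 and 55 of the 56, and members by rule overlap none. The lists of WNT ligands, integrins, laminins, calcium and sodium channels, interferon-induced genes and keratins also had none. Over all coding genes the share was only 0.858%, so the lack of a member in lists this small is near that share and shows no difference. Solute carriers had 5 of 364 (1.37%), led by SLC1A3, a glutamate transporter, with 22 tags. ZNF zinc finger genes had 4 of 496 (0.806%), led by ZNF462 with 25 tags, close to the share of all coding genes.

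Among members away from any counted TSS, the most tags were 36 (1.97 RPM, 1.38 to 2.73), at a site inside ENSG00000273824, a long noncoding RNA gene on chromosome 12. The sites in the PDE4B exon and at LINC02923 had 32 tags each, the TRABD2B intron and the site beside ANKRD1 30 each, and an intron of ANO4 and a site near WSCD2 29 each. Their nearest DMSO peaks were 5672 to 88616 bp away. All these distal sites stood clear of DMSO peaks by over 5 kb.

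The share of members among strong MAK683 peaks differed between chromosomes. They made up 9.52% (6.96 to 12.9) of the strong MAK683 peaks on chromosome 13, 8.48% on 8, 8.22% on 18 and 7.97% on 4. This share also depends on how many strong peaks a chromosome holds. By length, members numbered 3.13 per 10 Mb on chromosome 13, 3.07 on 18 and 3.30 on 4. Members were densest on chromosomes 11, 8 and 2, at 5.41, 4.58 and 4.48 per 10 Mb. On the gene-dense chromosomes 17, 19 and 22 they were 7, 2 and 0, together 0.536% (0.282 to 1.02) of 1680 strong peaks. The DMSO-only peaks showed no such spread, with 2.55% on chromosomes 17, 19 and 22 together and 2.36% on chromosomes 4, 8, 13 and 18 together, where members were 8.44%. These chromosome sets were chosen after their values were seen.

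**Figure D4:**
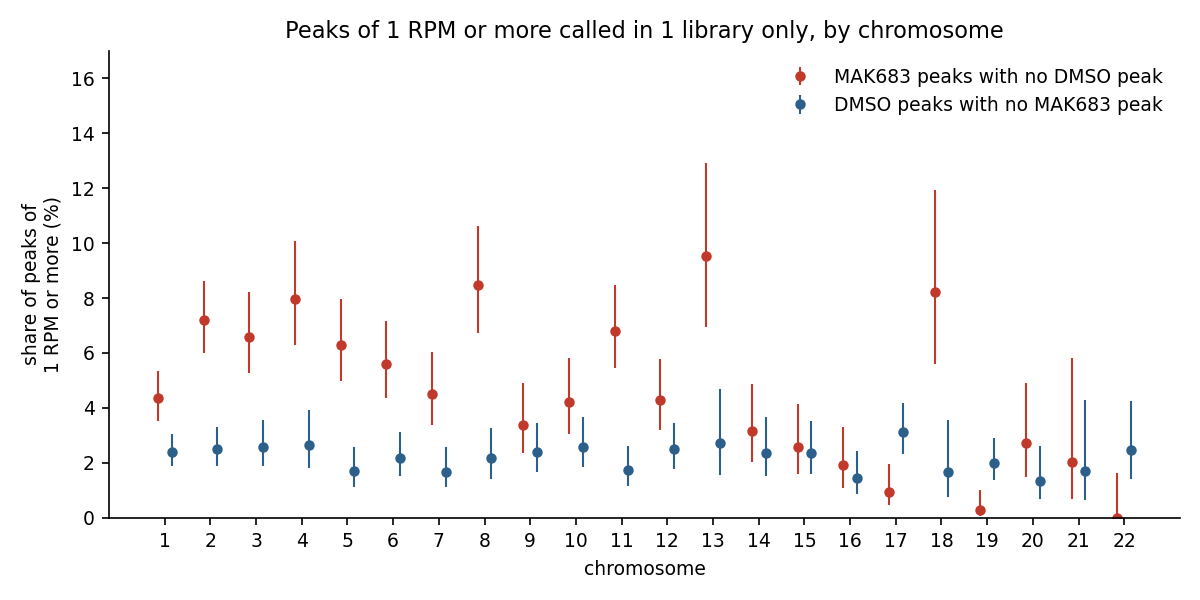
Share of peaks of 1 RPM or more with no peak in the other library (y axis, percent) by chromosome (x axis) for MAK683 peaks (red) and DMSO peaks (blue), with 95% Wilson intervals. The red points run from 0 on chromosome 22 to 9.52% on chromosome 13, while the blue points stay between 1.34% and 3.12%.

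Known sequence motifs were counted in the 200 bp windows on both strands, as a description of letters and not of binding. The letters were TGANTCA for AP-1, TGACGTCA for CRE, AGATAA for GATA factors, CAGNTG for E-box, CATTCC for TEAD, CCGGAA for ETS, TAATTA for homeobox, TGTTTAC for forkhead and TGTGGTT for RUNX factors. Others were GGGCGG for SP1, CCAAT for NF-Y, AGGTGTGA for T-box, ACAAAG for SOX factors, GGGANTTCC for NF-kB and ATGCAAAT for octamer, besides a CTCF and an IRF motif. Motifs may overlap each other within a window.

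CTCF, the insulator protein that anchors chromatin loops, had its motif in 5.18% (3.67 to 7.25) of distal members, against 12.04% of distal shared peaks of similar height and 10.9% of distal DMSO-only peaks. AP-1, the motif of stress and growth response factors, was in 4.17% (2.84 to 6.09) of distal members, against 6.75% (6.02 to 7.57) and 6.62% (4.55 to 9.52), so the intervals of these overlap. SP1, a GC-rich promoter motif, was in 16.04% of TSS-proximal members and 50.1% of the shared ones, and ETS in 4.10% and 16.1%. The low SP1 and ETS shares were found together with the low GC content of members. The DMSO-only peaks near a TSS had 15.8% and 6.33%.

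GATA and SOX motif shares were higher in TSS-proximal members. The GATA motif was in 7.46% (4.88 to 11.2), against 2.43% of the shared peaks and 3.80% (1.75 to 8.04) of the DMSO-only peaks. The SOX motif was in 16.4% (12.5 to 21.3), against 8.16% and 10.1% (6.33 to 15.8). For both motifs the members' interval overlapped that of the DMSO-only peaks, and both motifs are rich in A and T. E-box was the most common motif in TSS-proximal members, in 48.9% (43.0 to 54.8), against 37.8% of the shared peaks. The DMSO-only peaks near a TSS had 44.3% (36.8 to 52.1), which overlaps the members' interval. Among distal peaks E-box shares were alike, at 47.2% of members, 47.7% of shared peaks and 47.1% of DMSO-only peaks. The homeobox motif was in 1.38% (0.794 to 2.40) of all members, against 1.11% of the shared peaks and 3.99% (2.65 to 5.97) of the DMSO-only peaks, and the intervals of members and DMSO-only peaks did not overlap. The T-box motif was in 2 of 867 members (0.231%, 0.0633 to 0.837), against 0.740% and 0.726%.

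**Figure D5:**
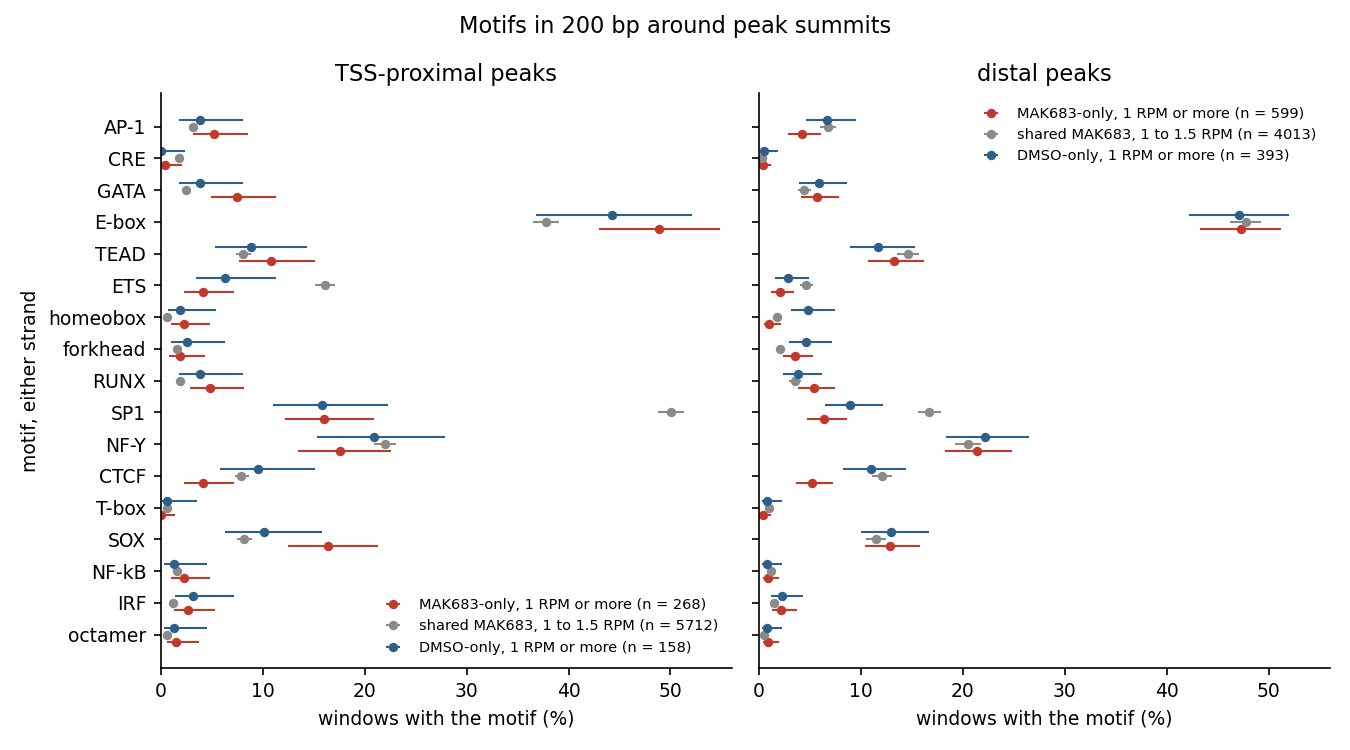
Percent of 200 bp summit windows holding each motif on either strand (x axis) for TSS-proximal (left) and distal (right) peaks, with 95% Wilson intervals and members in red, shared MAK683 peaks of 1 to 1.5 RPM in grey and DMSO-only peaks in blue. Among distal peaks the CTCF motif is rarer in members, at 5.18%, than in shared peaks, at 12.04%.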

How the data were processed

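ATAC-seq of G401 cells was analysed from a peak table per library. In the methods, reads were trimmed by Trim-galore, then mapped to hg19 using Bowtie2. Narrow peaks of either library were called separately by the authors using MACS 2.1.1.20160309 (per the file headers), with tags shifted by -100 bp and extended to 200 bp, no control, no local background, 1 tag per position and a q-value cutoff of 0.05. The methods and processing notes name other versions of this tool. The pileup as deposited is a signal in whole tags without depth scaling. Fold enrichment as deposited is a ratio, pileup over background. It changes with depth, as do the −log10 p-values and −log10 q-values as deposited, of which q served in an alternative.

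Heights were divided by the filtered tags of each library. Genes came from GENCODE 44 lifted to GRCh37, with 64486 genes and 1 TSS each, that of the Ensembl canonical transcript where marked. Distance was measured from the peak interval, and ties went to coding genes. Shares have Wilson intervals, heights exact Clopper-Pearson intervals and medians order-statistic intervals. The interval, nearest-gene and grouping code was tested on simulated data. Members, gene lists, motifs and alternatives were chosen with earlier results of these data known. Genes were named by height (12 promoter members and 6 distal members, ties kept), by list (up to 4 of most tags), by 3 or more members per gene, by the largest group, and from the genes of the study. Groups other than the largest, the further homeobox genes and the genes of lists with 1 hit were named after their values were seen. PECAM1 was not analysed here, and 1 further marker and 1 homeobox gene are not reported here. With 1 library per group no test was run. Python 3.11.15 was used.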

Additional observations from a re-analysis of the deposited data

Results flagged for a closer look

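Chromosome X was outside the comparison, and 8 of its 315 MAK683 peaks of 1 RPM or more overlapped no DMSO peak, against 1 of 505 DMSO peaks that overlapped no MAK683 peak. The tallest of the 8 had 23 tags.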

How the results depend on the processing

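Of 81 alternatives for 12 results, 32 stayed within the counting interval of the value given, or within 1.5 times a count, and 49 moved beyond it; where the cause is not the construction of the alternative it was not tested. The number of members was 27 at 1.5 RPM or more, 35 with RPM on total tags and 2809 at a −log10 q of at least 10, with 10, 11 and 397 coding genes and 0.387%, 0.452% and 10.996% of strong MAK683 peaks. In that order the TSS share was 48.1%, 42.9% and 26.8%, the share in groups 0, 0 and 32.4%, the median length 1273, 1191 and 903 bp, and median GC 54, 53.5 and 51.5%. At 1.5 RPM and on total tags the share inside a gene was 74.1% and 74.3%, and that nearest a coding gene 55.6% and 51.4%. At 1.5 RPM 3.70% were within 1 kb of a DMSO peak.

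With members defined by a summit outside every DMSO peak, the share of strong peaks was 6.31%, with 269 coding genes, a TSS share of 37.3%, coding share of 43.8%, group share of 16.5% and median length of 1191.5 bp. Barring DMSO peaks within 1 kb gave 4.61% of strong peaks. The ratio of members to DMSO-only peaks, 1.57 as reported, was 1.01 by the summit rule, 1.93 at 1.5 RPM, 1.95 by q, 2.47 with 1 kb barred, and 4.49 with 19 tags in either library.

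The TSS share was 18.9% within 1 kb, 27.1% from the summit, 19.3% with coding TSSs alone and 41.6% with all transcripts. The coding share was 49.7% without pseudogenes and other genes. The group share was 10.2% joined at 50 kb and 19.6% at 200 kb. GC of whole intervals was 48.8%. Chosen after seeing the data, the neighbor ratio was 8.41 within 10 kb, 10.8 around members of 1.5 RPM or more, and 5.10 for neighbors of 0.6 RPM or more. No paired analysis was possible because each treatment has 1 library. Depth limits these calls: most members had 19 to 22 tags, near the limit, and a site without a peak is not shown to lack tags.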
